A study of Rattus norvegicus with 9 samples.

Results

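The genes of glucose uptake, glycolysis and the polyol pathway were examined in retinal microglia isolated from control and diabetic rats. They are 43 genes taken by symbol from the count table, by a rule that uses no measured value. The table, which lists 28343 genes, held a row for 41 of them, and 37 passed the filter on low counts and were tested. Pdha1, a subunit of pyruvate dehydrogenase, and Pgd, an enzyme of the pentose phosphate pathway, were not analysed here.

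Dark Agouti rats, 8 to 10 weeks old, were fasted for 12 hours and then given streptozotocin at 55 mg/kg, a toxin that destroys insulin-producing beta cells (diabetic, 4 libraries), or citrate buffer alone (control, 5 libraries). Retinas were taken 4 weeks later. Diabetic rats with blood glucose above 30 mmol/l received 2 units of Protaphane insulin, and the labels do not say which animals these were. Whole retinas were digested with papain, CD11b-positive cells were sorted, and their RNA was pre-amplified with SmartSeq v4 before Nextera XT libraries were made. The labels do not say whether a library came from 1 animal or from several. The p-values below therefore measure the spread between these libraries.

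Microglia are the resident macrophages of the retina, and CD11b is also carried by other myeloid cells. Glucose enters these cells through facilitative transporters, is trapped by hexokinase and is broken down to pyruvate, which becomes lactate or enters mitochondria through pyruvate dehydrogenase. Side branches carry glucose into the pentose phosphate pathway, into the hexosamine pathway that feeds protein glycosylation, and into the polyol pathway, in which aldose reductase makes sorbitol and sorbitol dehydrogenase makes fructose. Flux through the polyol pathway in hyperglycaemia is a classical theme in the study of diabetic retinopathy. MondoA (Mlxip) senses hexose phosphates and switches on Txnip and Arrdc4, whose proteins are arrestins that lower glucose uptake, and HIF1A, the oxygen-regulated subunit of hypoxia-inducible factor, switches on many glycolytic genes.

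The libraries held 6228756 to 11332823 counts in genes. Values are normalised CPM, counts scaled to CPM on a library size scaled by the trimmed mean of M-values (TMM). The defining microglial genes were abundant, with Csf1r at 10534 to 12116 in controls and 9529.5 to 10384 in diabetic libraries, P2ry12 at 1368 to 1919 and 1495 to 1786, and Tmem119 at 1962 to 4022 and 2172 to 3108. Siglech, a further microglial marker, had 0 counts in every library. Controls 4 and 6 stood apart. A list of 29 genes of the cell isolation response (immediate early, stress and chemokine genes) took 3.61% and 4.61% of their counts, against 0.622% to 1.34% in the other 3 control libraries and 1.64% to 2.85% in the diabetic libraries. Cytokine genes took 1.32% and 2.18% of counts there and 0.151% to 0.538% elsewhere. Markers of blood and border myeloid cells were higher in diabetic libraries for 9 of 11 tested genes (0 past an adjusted p of 0.05, 7 at an unadjusted p below 0.05). They summed to 0.0655% to 0.145% of counts, against 0.0329% to 0.0731% in controls. Ccr2 was at 0 in all libraries. How reads were counted is not known here, so this 0 and that of Siglech may not reflect the levels. Of 5 tested neutrophil markers, 4 were higher and 1 lower in diabetic libraries at an unadjusted p below 0.05, and 0 passed an adjusted p of 0.05. That list, which also holds S100a8 and S100a9 of the myeloid list, took 0.0274% to 0.0393% of control and 0.0319% to 0.0372% of diabetic counts. Markers of inner retinal neurons took 0.00902% to 0.0200% of control and 0.0133% to 0.0420% of diabetic counts. Their log2 fold changes were positive for 13 of 16 tested genes, with a median of 0.69, and 0 passed an adjusted p of 0.05. Without adjustment, p fell below 0.05 for 7 genes with a positive and 2 with a negative log2 fold change. For 2 of the 16, every diabetic library lay above every control. Vascular cell markers had negative log2 fold changes for 13 of 15 tested genes (median −1.42, 0 past an adjusted p of 0.05, 2 lower and 0 higher at an unadjusted p below 0.05). They took 0.0498% and 0.0337% of counts in controls 1 and 3, 0.0188% to 0.0248% in controls 4, 5 and 6, and 0.0193% to 0.0284% in diabetic libraries. Photoreceptor markers had positive log2 fold changes for 13 of 14 tested genes (median 0.32, 0 at an unadjusted p below 0.05) and took 0.0253% to 0.136% of control and 0.0399% to 0.205% of diabetic counts. The part of these other cells in the results below was not tested. In bulk libraries, fewer cells of a type and less RNA per cell cannot be told apart.

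No member gene passed the test between diabetic and control microglia. By edgeR's quasi-likelihood test, 0 of 37 had a Benjamini-Hochberg adjusted p below 0.05, a threshold that 0.0681% of all 11748 tested genes passed, while DESeq2's Wald test called 3 of the 37 and 5.23% of all genes. An unadjusted p below 0.05 was reached by 11 members, 29.7% of those tested, against 18.9% of all genes. Of these, 4 were higher in diabetic libraries, where the background was 8.94%, and 7 were lower, where it was 10.0%. Without controls 4 and 6 the same counts were 4 and 5, in a fit where 1775 of 11902 genes had an unadjusted p below 0.05. The log2 fold change or log2 ratio, diabetic over control throughout, was negative for 23 members (62.2%, against 49.7% of all genes) and its median over the 37 was −0.18, against 0.0017 over all genes. That median was −0.057 without controls 4 and 6, and −0.064 with no normalisation factors, a setting that shifts the median of all genes from 0.0017 to 0.12.

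The diabetic and control libraries did not overlap for 5 members, 13.5% of those tested, against 8.44% of all genes. Txnip was the 1 member with all diabetic libraries above all controls, a pattern held by 4.27% of all genes. Hif1a, Akr1b1, Sord and Pkm had all diabetic libraries below all controls, a pattern held by 4.16% of all genes. These patterns, here and below, are of normalised CPM, and the TMM factor ran from 0.839 in control 6 to 1.07 in diabetic 1. As shares of total counts the groups of Sord overlapped, with 256 of 9246211 counts in control 6 and 315 of 9159560 in diabetic 2. Those of Hif1a, Akr1b1 and Pkm overlapped too. With no normalisation factors the log2 fold changes were −0.25 for Hif1a, −0.25 for Akr1b1, −0.12 for Sord and −0.11 for Pkm. Txnip was also the 1 member with an adjusted p below 0.1, as had 1.90% of all genes.

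**Figure D1:**
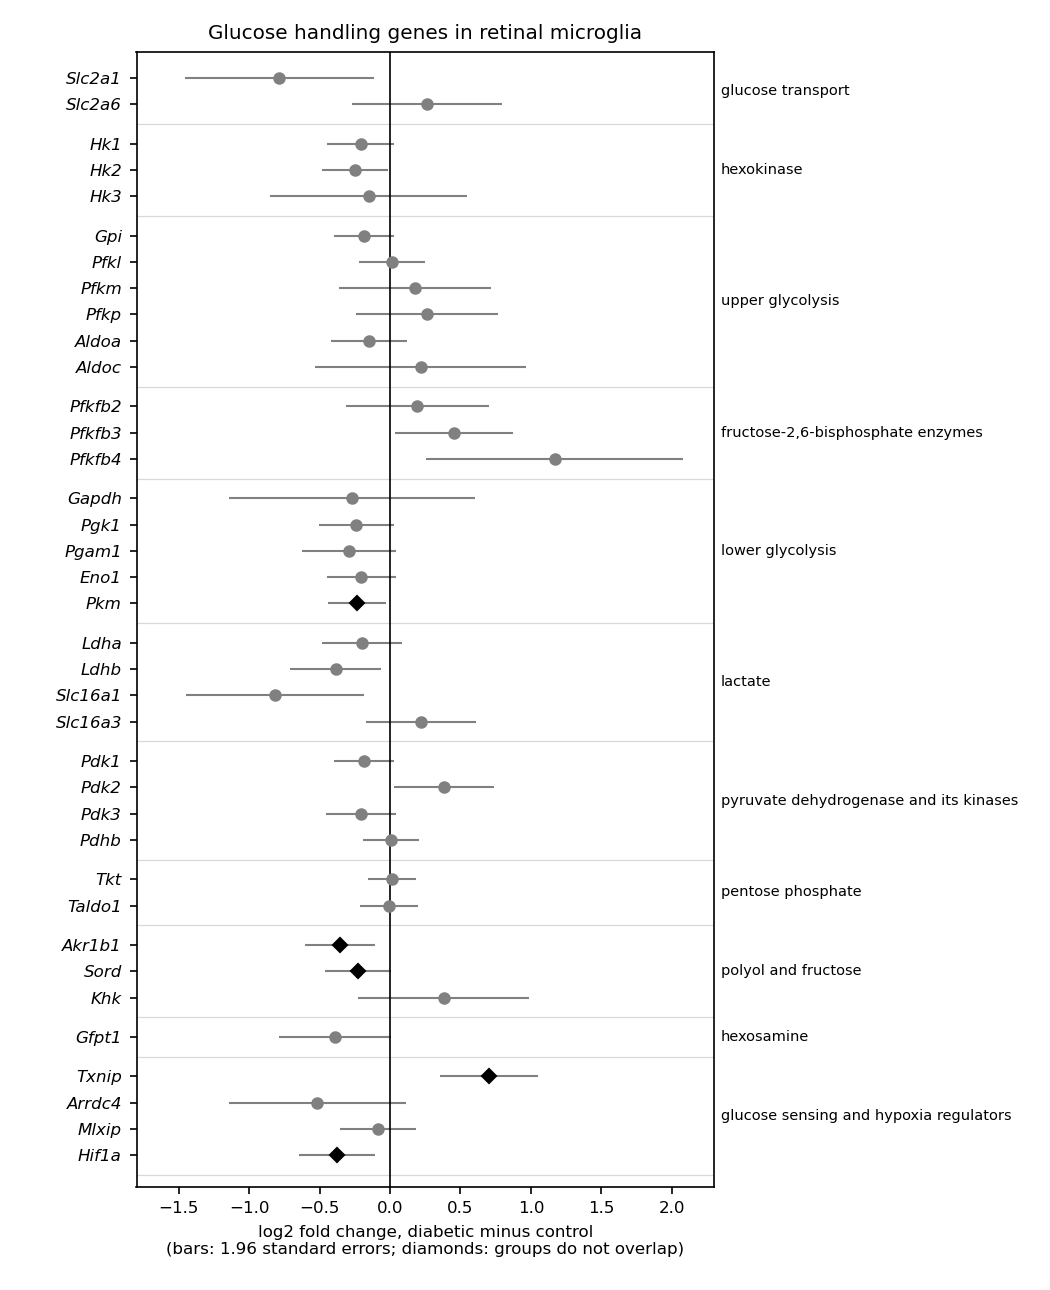
Log2 fold change (x axis, diabetic over control, points with 95% intervals) for each of the 37 tested members, grouped by role, with diamonds for the 5 whose groups do not overlap. Pfkfb4, a scarce gene with a wide interval, lies furthest to the right at 1.17, followed by Txnip at 0.70. Slc16a1 and Slc2a1 lie furthest to the left at −0.82 and −0.79.

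The regulators come first, with the stretches of DNA before their genes. Windows of 250 bases before to 50 bases after the gene start were taken from RefSeq on the GRCr8 build, and 39 of the 43 members had at least 1, with 43 windows among them (Hk1 and Eno1 have 2 and Aldoa 3). Slc2a3, Txnip, Akr1b1 and Pgk1 had no entry. Both strands were searched for CACGTG, the E-box bound by MondoA and its relatives, for ACGTG and GCGTG, the cores of the hypoxia response element, and for the carbohydrate response element, a pair of E-box-like motifs with a short spacer. CACGTG contains ACGTG, so these matches overlap. An E-box was found in a window of 7 of the 39 members (17.9%, against 7.08% of 27457 genes counted the same way), namely Arrdc4, Hif1a, Ldha, Pdhb, Pdk2, Pfkfb3 and Slc16a1. ACGTG was found for 21 members (53.8%, against 20.9%) and GCGTG for 19 (48.7%, against 32.4%). By single windows the shares were 16.3%, 48.8% and 46.5% of the 43, against 6.42%, 19.3% and 29.7% of 33469. The strict paired form was found for 0 of the 39 members and in 0.0359% of all windows. With a form this rare, and looser forms not searched, the 0 does not show that the element is absent. A match describes letters and is not evidence of binding.

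Windows are shown for Arrdc4, the paralogue of Txnip, and for Hif1a, Sord and Pkm, the 3 members with a window whose diabetic libraries all lay below the controls. Capitals mark every E-box and hypoxia core on either strand. The sequences run 5′ to 3′ on the strand of the gene.
Arrdc4, chr1:131793376-131793675, minus strand: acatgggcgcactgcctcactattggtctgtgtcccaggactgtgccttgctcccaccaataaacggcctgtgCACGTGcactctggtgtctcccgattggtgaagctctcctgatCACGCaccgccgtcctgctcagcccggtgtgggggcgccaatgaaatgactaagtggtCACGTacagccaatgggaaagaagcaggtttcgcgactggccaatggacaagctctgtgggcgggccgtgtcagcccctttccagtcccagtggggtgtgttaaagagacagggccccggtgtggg
Hif1a, chr6:98359648-98359947, plus strand: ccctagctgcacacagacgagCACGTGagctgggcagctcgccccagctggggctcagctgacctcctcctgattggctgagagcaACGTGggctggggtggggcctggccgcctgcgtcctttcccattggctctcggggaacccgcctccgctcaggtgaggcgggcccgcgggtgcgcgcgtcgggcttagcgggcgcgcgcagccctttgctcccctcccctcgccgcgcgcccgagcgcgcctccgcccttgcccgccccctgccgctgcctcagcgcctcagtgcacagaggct
Sord, chr3:129638418-129638717, plus strand: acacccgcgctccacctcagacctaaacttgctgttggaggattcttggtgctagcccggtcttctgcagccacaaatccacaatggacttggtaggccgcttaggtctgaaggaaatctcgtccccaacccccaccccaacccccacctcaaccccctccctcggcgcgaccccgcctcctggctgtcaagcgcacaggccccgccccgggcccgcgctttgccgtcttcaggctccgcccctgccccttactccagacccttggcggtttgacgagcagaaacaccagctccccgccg
Pkm, chr8:68953385-68953684, plus strand: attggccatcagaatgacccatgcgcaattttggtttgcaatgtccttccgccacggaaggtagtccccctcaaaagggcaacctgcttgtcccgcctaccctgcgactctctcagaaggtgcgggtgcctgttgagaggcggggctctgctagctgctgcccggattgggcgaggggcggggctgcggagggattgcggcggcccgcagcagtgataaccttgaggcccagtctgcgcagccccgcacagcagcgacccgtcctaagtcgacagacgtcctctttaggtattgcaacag
The E-box of Arrdc4 begins 177 bases before the start and that of Hif1a 229 bases before it. The windows of Sord and Pkm hold none of the letters searched, which says nothing about the factors.

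Txnip, the thioredoxin-interacting protein, was higher in every diabetic library (ENSRNOG00000021201, Rnor6 chromosome 2, 198683159 to 198686974, plus strand). Its normalised CPM was 493, 527, 397, 484 and 347 in controls 1, 3, 4, 5 and 6 and 667, 733, 734 and 789.9 in diabetic libraries 1, 2, 4 and 5. The lowest diabetic library lay above the highest control, and controls 4 and 6 were the lowest of the 9. The group means were 449.5 ± 75 normalised CPM (SD, n = 5) and 731 ± 50.1 (SD, n = 4), a 1.63-fold difference. The log2 fold change was 0.70 (SE 0.18, 95% interval 0.35 to 1.05) with an adjusted p of 0.0608, which misses the threshold. The authors' deposited table gives Txnip 0.80 on the log2 scale with an adjusted p of 0.0324, the 1 member below 0.05 there. Its log2 fold changes lie on a shifted scale, with a median of 0.12 over the 11748 genes tested here, against 0.0017 in the main fit. Of all genes in the authors' table, 2.10% of 12069 passed, and 1.92% passed and were higher in diabetic libraries.

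The call for Txnip depended on the processing. Its adjusted p was below 0.05 with upper-quartile factors (0.0426), without the filter on low counts (0.0281), by DESeq2 (0.000217), with the isolation response as a covariate (0.00287) and without control 1 (0.0453). It was above 0.05 with the RLE size factors (0.059), with no normalisation factors (0.0614), without controls 4 and 6 (0.0585), and without any other single library, up to 0.207 without diabetic 4. The log2 fold change was 0.53 without controls 4 and 6, in the same direction as with all libraries.

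The authors' assembled transcripts gave a smaller difference for Txnip. Their TPM, a level per transcript length, for its reference transcript was 93.2, 99.5, 69.7, 95.2 and 57.9 in controls 1, 3, 4, 5 and 6, and 69.0, 77.4, 123 and 158 in diabetic libraries 1, 2, 4 and 5. Diabetic libraries 1 and 2 lay among the controls here, and diabetic libraries 4 and 5 above them. The mean difference in log2(TPM + 1) was 0.31, with a 2-sided exact permutation p of 0.365. Summing all transcripts assembled over the gene on either strand gave 0.28 (exact permutation p = 0.429). The assemblies hold 1 reference transcript of Txnip in each library and 1 to 4 further transcripts over it. Over all genes, reference transcripts carried 8.45% (control 5) to 12.7% (diabetic 4) of the TPM of a library, and 11.1% in diabetic 5. The part of this share in the TPM of Txnip was not tested.

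Arrdc4, an arrestin gene that MondoA also controls, showed no separation of the groups (ENSRNOG00000010775, Rnor6 chromosome 1, 129766100 to 129780356, minus strand). It was at 98.6, 114, 248, 144 and 238 normalised CPM in the controls and 122, 110.5, 99.3 and 139 in the diabetic libraries, in the same order. Controls 4 and 6 were the highest of all and the other libraries overlapped. The log2 fold change was −0.52 (SE 0.32, adjusted p = 0.349), and without controls 4 and 6 it was −0.021. With the isolation response as a covariate it was −0.48, with an adjusted p of 0.0225. That fit called 6 of the 37 members and 9.96% of all genes.

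Mlxip, which encodes MondoA, was at 38.7, 34.6, 41.4, 50.7 and 46.5 normalised CPM in the controls and 34.9, 46.2, 37.5 and 40.9 in the diabetic libraries. The groups overlapped throughout, and the log2 ratio of −0.086 had a 95% interval of −0.36 to 0.18 (adjusted p = 0.746). Leaving out 1 library moved it between −0.17 without diabetic 2 and −0.013 without control 5.

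Hif1a was lower in every diabetic library. Its normalised CPM was 215, 224, 269.8, 251 and 301 in the controls and 203, 182, 176 and 215 in the diabetic libraries. Diabetic 5 lay just below control 1, the lowest control, and controls 4 and 6 were the highest. The means were 252 ± 34.8 normalised CPM (SD, n = 5) and 194 ± 18.3 (SD, n = 4), and the log2 fold change was −0.38 (SE 0.14, adjusted p = 0.125). It was −0.26 without controls 4 and 6, and −0.39 with the isolation covariate, where the adjusted p was 0.0156. The adjusted p was 0.0512 by DESeq2, 0.2355 with no normalisation factors and 0.513 in the authors' deposited table.

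**Figure D2:**
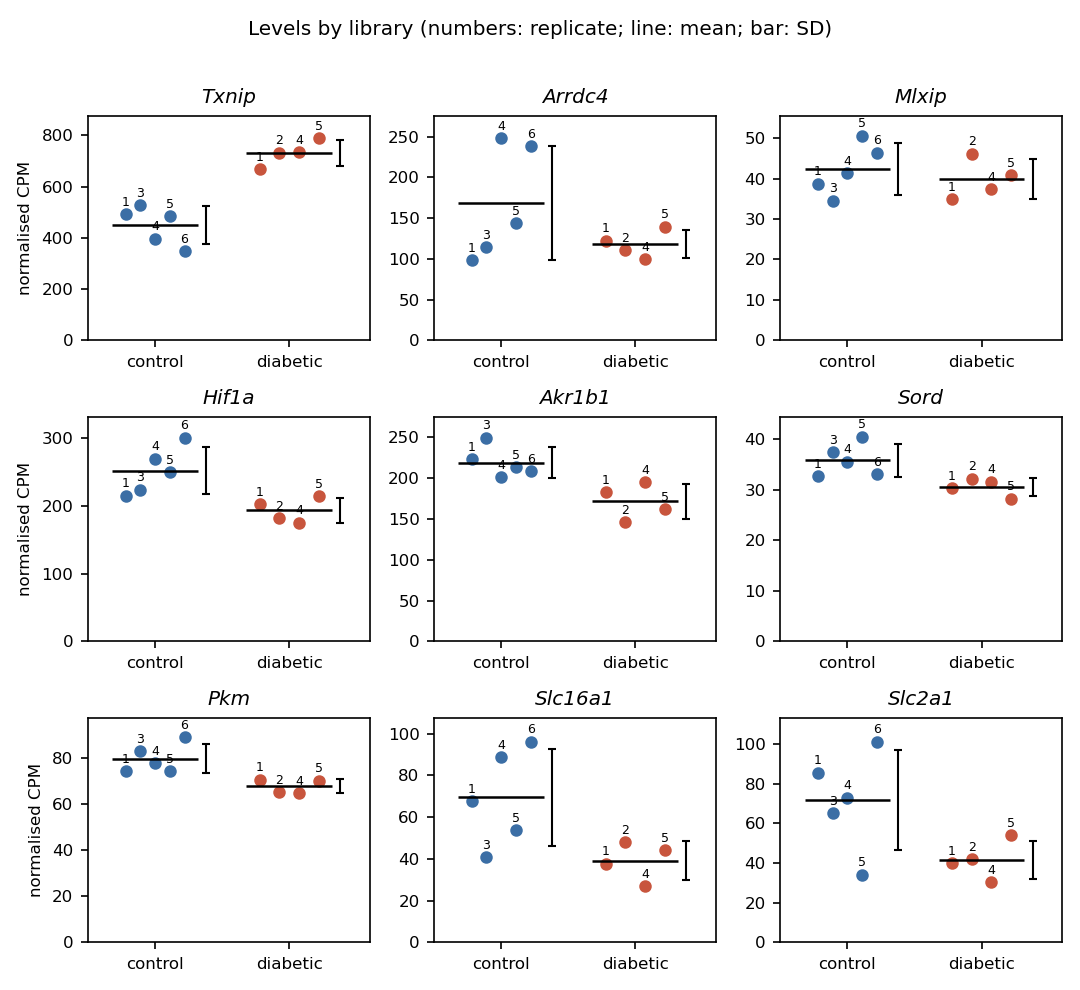
Normalised CPM (y axis, each panel with its own scale starting at 0) of 9 members in each of the 5 control and 4 diabetic libraries, with a line at each group's mean and a bar for its SD. The diabetic points of Txnip lie above all controls, those of Hif1a, Akr1b1, Sord and Pkm lie below all controls, and Arrdc4, Mlxip, Slc16a1 and Slc2a1 overlap.

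The polyol pathway enzymes both lay lower in the diabetic libraries. Akr1b1, aldose reductase, was at 223, 249.5, 201, 213 and 208 normalised CPM in the controls and 182, 146, 195 and 162 in the diabetic libraries. Every diabetic value was below every control value, with diabetic 4 closest to the controls. Its log2 ratio was −0.35 (SE 0.13, 95% interval −0.61 to −0.10, adjusted p = 0.124). DESeq2 gave an adjusted p of 0.0453 and the isolation covariate 0.0319. The adjusted p was 0.213 with upper-quartile factors, 0.331 with no normalisation factors and 0.548 in the authors' deposited table. Without controls 4 and 6 the log2 fold change was −0.43. Over the libraries left out in turn it ran from −0.42 to −0.29.

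Sord, sorbitol dehydrogenase, was at 32.7, 37.3, 35.5, 40.5 and 33 normalised CPM in the controls and 30.2, 32.2, 31.6 and 28.2 in the diabetic libraries. The gap between the groups was narrow, from 32.2 in diabetic 2 to 32.7 in control 1. Its log2 ratio was −0.23 (SE 0.12, adjusted p = 0.273), and −0.28 without controls 4 and 6. Khk, ketohexokinase, which phosphorylates the fructose that this pathway makes, was scarce at 2.04 to 3.5 CPM in controls and 2.45 to 4.5 in diabetic libraries, with a log2 ratio of 0.38 (adjusted p = 0.483), or 0.21 without diabetic 5.

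Among the glucose transporters, Slc2a1 (GLUT1, the main facilitative glucose carrier of many cell types) varied widely between controls (ENSRNOG00000007284, Rnor6 chromosome 5, 138154673 to 138182897, plus strand). It was at 85.4, 64.9, 72.9, 34.2 and 101 normalised CPM in the controls and 39.8, 41.9, 30.3 and 54 in the diabetic libraries. Control 5 lay among the diabetic libraries and the other 4 controls lay above all of them. On the log2 scale the ratio was −0.79 (SE 0.34, 95% interval −1.46 to −0.12, adjusted p = 0.195). The vascular markers given above, which also have negative ratios, were highest in controls 1 and 3, while Slc2a1 was highest in controls 6 and 1, and their part was not tested. Slc2a6 (GLUT6) was at 7.07 to 16.8 and 10.2 to 17.3 CPM with a log2 ratio of 0.26, between 0.13 without diabetic 1 or control 5 and 0.43 without control 6. Slc2a3 (GLUT3, best known in neurons) had 0 counts in all 9 libraries, which allows up to 0.0355 CPM over their 84533787 counts by a limit of 3 counts that covers counting error only. How reads with several matches or from either strand were counted is not known here, so this 0 may not reflect the level of the gene.

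All 3 hexokinases had negative log2 fold changes. Hk2, the inducible mitochondrial form, was at 263, 248, 320.3, 326 and 336 normalised CPM in the controls and 242, 245, 248 and 269.7 in the diabetic libraries (ENSRNOG00000006116, Rnor6 chromosome 4, 113559427 to 113610243, minus strand). Controls 4, 5 and 6 lay above all diabetic libraries and controls 1 and 3 among them. Its log2 ratio was −0.25 (SE 0.12, adjusted p = 0.239), and −0.16 without controls 4 and 6. Hk1, the widely expressed form, was at 138, 126, 163, 162 and 125 in the controls and 124, 115, 115 and 139 in the diabetic libraries, with overlapping groups and a log2 ratio of −0.21 (adjusted p = 0.321). Hk3, a form known from myeloid cells, was at 8.03, 4.34, 4.73, 3.96 and 11.1 in the controls and 8.8, 4.5, 5.42 and 4.3 in the diabetic libraries, and its log2 ratio of −0.15 was 0.070 without controls 4 and 6.

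In upper glycolysis, from glucose 6-phosphate to the triose phosphates, 0 of 6 tested genes reached an unadjusted p of 0.05. Gpi, the isomerase, was at 317 to 413 CPM in controls and 279 to 329 in diabetic libraries, with a log2 ratio of −0.19, or −0.11 without control 6. The phosphofructokinase subunits Pfkl, Pfkm and Pfkp had log2 fold changes of 0.017, 0.18 and 0.26. Over the libraries left out in turn these ran from −0.042 to 0.085, from 0.037 to 0.41 and from 0.10 to 0.43, lowest without diabetic 1 for Pfkl and Pfkm and without diabetic 2 for Pfkp, and highest without diabetic 2, control 1 and diabetic 4. Aldolase A (Aldoa) was at 303 to 467 and 280.5 to 351 CPM with a log2 ratio of −0.15, which was 0.015 without controls 4 and 6. Aldolase C (Aldoc), known from neurons and glia, was at 25.1 to 61.2 and 28.4 to 79.2 CPM. Its highest value was in diabetic 1, the library with the highest inner retinal neuron markers, at 0.0420% of counts. The next highest was in control 6, where those markers took 0.0134%, and the part of neurons was not tested. The log2 ratio of Aldoc was 0.22, and −0.11 without diabetic 1. Tpi1, whose product every glycolytic cell uses, had 1 count in all libraries together, and the same doubt about counting holds for it.

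The enzymes that set fructose 2,6-bisphosphate, a strong activator of phosphofructokinase, all had positive log2 fold changes. Pfkfb3, whose product favours glycolysis, was at 11.6, 11.5, 20.7, 13.5 and 15.5 normalised CPM in the controls and 23.8, 16.8, 19.9 and 19.2 in the diabetic libraries. Control 4 was the 1 control above the lowest diabetic library. Its log2 ratio was 0.46 (SE 0.21, adjusted p = 0.229), and 0.70 without controls 4 and 6. Pfkfb4 was scarce, at 0.756, 0.868, 1.18, 1.07 and 1.42 in the controls and 1.38, 2.15, 4.15 and 2.0 in the diabetic libraries, or 8 to 26 counts per library, with a log2 ratio of 1.17 (SE 0.47, adjusted p = 0.158). Pfkfb2 had a log2 ratio of 0.19, between 0.032 without control 1 and 0.33 without control 5.

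Lower glycolysis, from glyceraldehyde 3-phosphate to pyruvate, had negative log2 fold changes for all 5 tested genes, between −0.29 and −0.20. Pkm, pyruvate kinase of the last step, was at 74.2, 82.9, 77.6, 74.2 and 88.8 normalised CPM in the controls and 70.5, 65.1, 64.7 and 70.1 in the diabetic libraries. No diabetic library reached the lowest control. The means were 79.5 ± 6.28 normalised CPM (SD, n = 5) and 67.6 ± 3.1 (SD, n = 4), with a log2 ratio of −0.23 (SE 0.10, adjusted p = 0.207). Without controls 4 and 6 it was −0.20. Pgk1 (log2 ratio −0.24), Pgam1 (−0.29) and Eno1 (−0.20) had overlapping groups, and Pgam1 was −0.10 without controls 4 and 6.

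Gapdh was at 1.42, 2.69, 7.64, 4.93 and 5.94 normalised CPM in the controls and 4.45, 3.27, 2.23 and 4.8 in the diabetic libraries, or 14 to 71 counts per library. Gapdh has many near-identical pseudogene copies, and how reads that match several places were counted is not given in the sources used here, so its level is uncertain. Its log2 ratio of −0.27 was 0.30 without controls 4 and 6. Eno2, the neuronal enolase, had 0 to 23 counts per library and was not tested.

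At the lactate step, Slc16a1 (MCT1, which carries lactate and other monocarboxylates) was the lowest member by fold change (ENSRNOG00000019996, Rnor6 chromosome 2, 207108552 to 207128554, plus strand). It was at 67.8, 40.7, 88.8, 53.9 and 96.1 normalised CPM in the controls and 37.7, 47.9, 26.9 and 44.2 in the diabetic libraries. Controls 4 and 6 were the highest, control 3 lay among the diabetic libraries, and controls 1 and 5 lay above them. The log2 fold change was −0.82 (SE 0.32, adjusted p = 0.153) and −0.47 without controls 4 and 6. Vascular cell markers, which also have negative ratios, were highest in controls 1 and 3, while Slc16a1 was highest in controls 6 and 4. The part of vascular cells was not tested. DESeq2 gave an adjusted p of 0.0333 and the isolation covariate 0.0058. The adjusted p was 0.166 with upper-quartile factors, 0.170 with no normalisation factors and 0.0987 in the authors' deposited table. Ldhb was at 47.8, 39.4, 41.5, 33.8 and 36.4 in the controls and 30.0, 27.3, 38.4 and 26.6 in the diabetic libraries, with only diabetic 4 inside the control range (log2 ratio −0.39, SE 0.16, adjusted p = 0.186). Ldha, the subunit that favours lactate formation, was at 85, 89.7, 72.9, 86 and 106 in the controls and 96.5, 72.3, 73.5 and 63.8 in the diabetic libraries (log2 ratio −0.20, between −0.33 without diabetic 1 and −0.12 without diabetic 5). Slc16a3 (MCT4, the lactate exporter of glycolytic cells) was at 55, 43.4, 59.8, 46.8 and 85.4 and 82.9, 61.6, 56.9 and 69, with a log2 ratio of 0.22, 0.47 without controls 4 and 6 and 0.11 without diabetic 1.

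Of the kinases that switch off pyruvate dehydrogenase, Pdk2 was at 18.6, 16.3, 14.3, 21.2 and 12.6 normalised CPM in the controls and 23.2, 19.5, 23.4 and 20.7 in the diabetic libraries. Controls 4 and 6 were the lowest and control 5 alone lay among the diabetic libraries. Its log2 ratio of 0.38 (SE 0.18, adjusted p = 0.234) was 0.21 without controls 4 and 6. Pdk1 (log2 ratio −0.18) and Pdk3 (−0.21) had overlapping groups. Pdk4, the form known for its rise in fasting and diabetes in other tissues, had 12, 2, 2, 2 and 3 counts in the controls and 3, 0, 1 and 10 in the diabetic libraries, 35 in all, and was not tested. Pdhb, the beta subunit of the enzyme, was at 84.2 to 96.5 and 78 to 104 CPM, and the 95% interval of its log2 ratio was −0.19 to 0.21.

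The pentose phosphate members Tkt and Taldo1, transketolase and transaldolase, had log2 fold changes of 0.017 (95% interval −0.15 to 0.19) and −0.0090 (−0.22 to 0.20). Gfpt1, the first and rate-limiting enzyme of the hexosamine pathway, was at 132, 139.6, 219, 192 and 255 normalised CPM in the controls and 139, 131, 144 and 158 in the diabetic libraries. Controls 4, 5 and 6 lay above all diabetic libraries. Its log2 ratio was −0.39 (SE 0.20, adjusted p = 0.27) and −0.12 without controls 4 and 6. The adjusted p was 0.0397 with the isolation covariate and 0.214 by DESeq2.

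**Figure D3:**
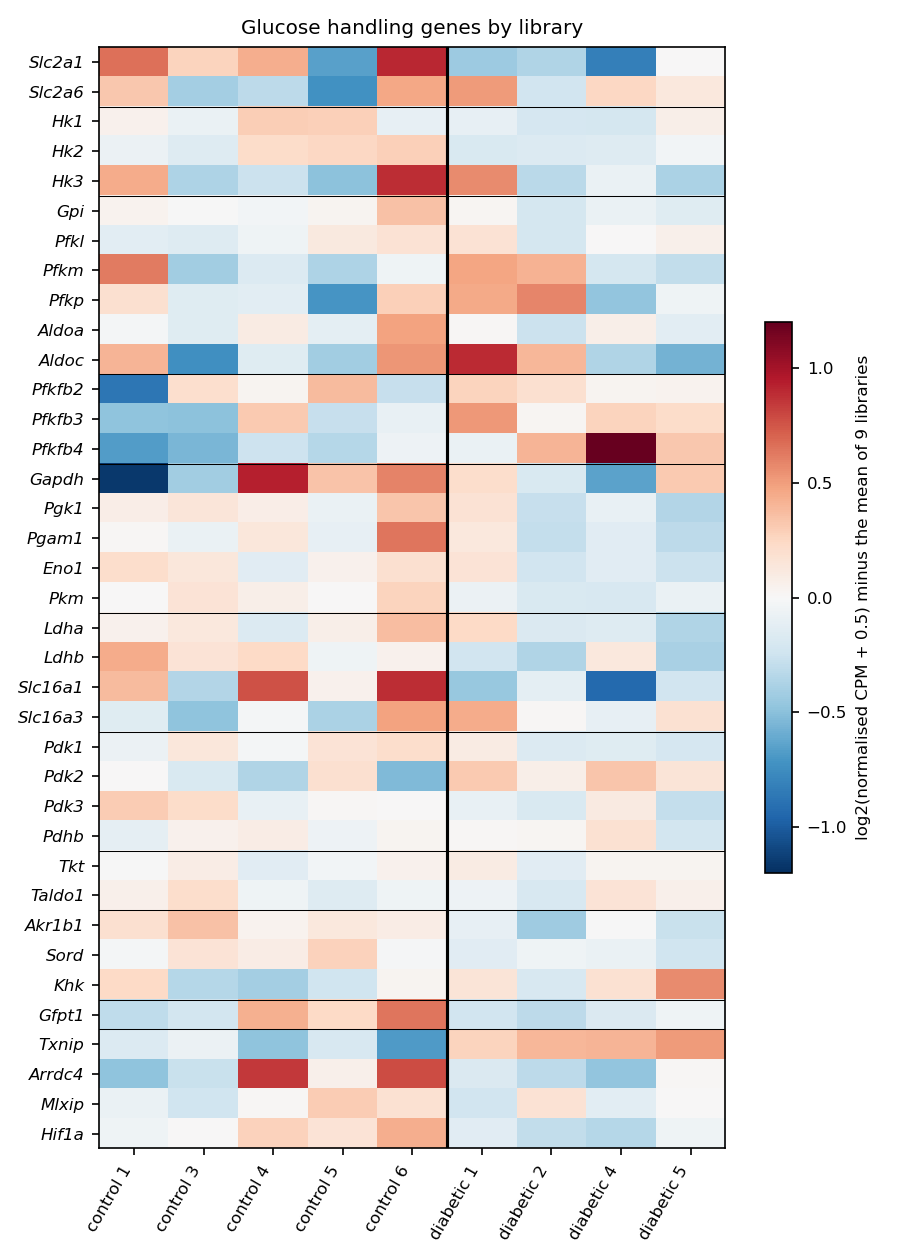
Log2 normalised CPM of each tested member in each of the 9 libraries (columns, 5 control then 4 diabetic), shown as the difference from that gene's mean over all libraries (colour). Control 6 is the highest library for 15 of the 37 members and diabetic 5 the lowest for 9.

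Control 6 stood out among the members on normalised CPM. This library, with the highest share of isolation response genes, was the highest of the 9 libraries for 15 of 37 members (40.5%), against 19.2% of all genes. It also had the lowest TMM factor, 0.839 against 0.927 to 1.07 in the others, which raises its normalised CPM. As a share of total counts the members took 0.399% in control 6, within the range of 0.393% (control 4) to 0.448% (diabetic 1). Diabetic 5 was the lowest for 9 (24.3%, against 7.62%). Control 4 was the highest for 3 (8.11%, against 8.55%). Controls 4 and 6 were the top pair for 7 members (18.9%, against 14.3% of all genes), namely Aldoa, Gapdh, Pgam1, Slc16a1, Gfpt1, Arrdc4 and Hif1a. They were the bottom pair for 2 members (5.41%, against 12.5% of all genes), Txnip and Pdk2.

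**Figure D4:**
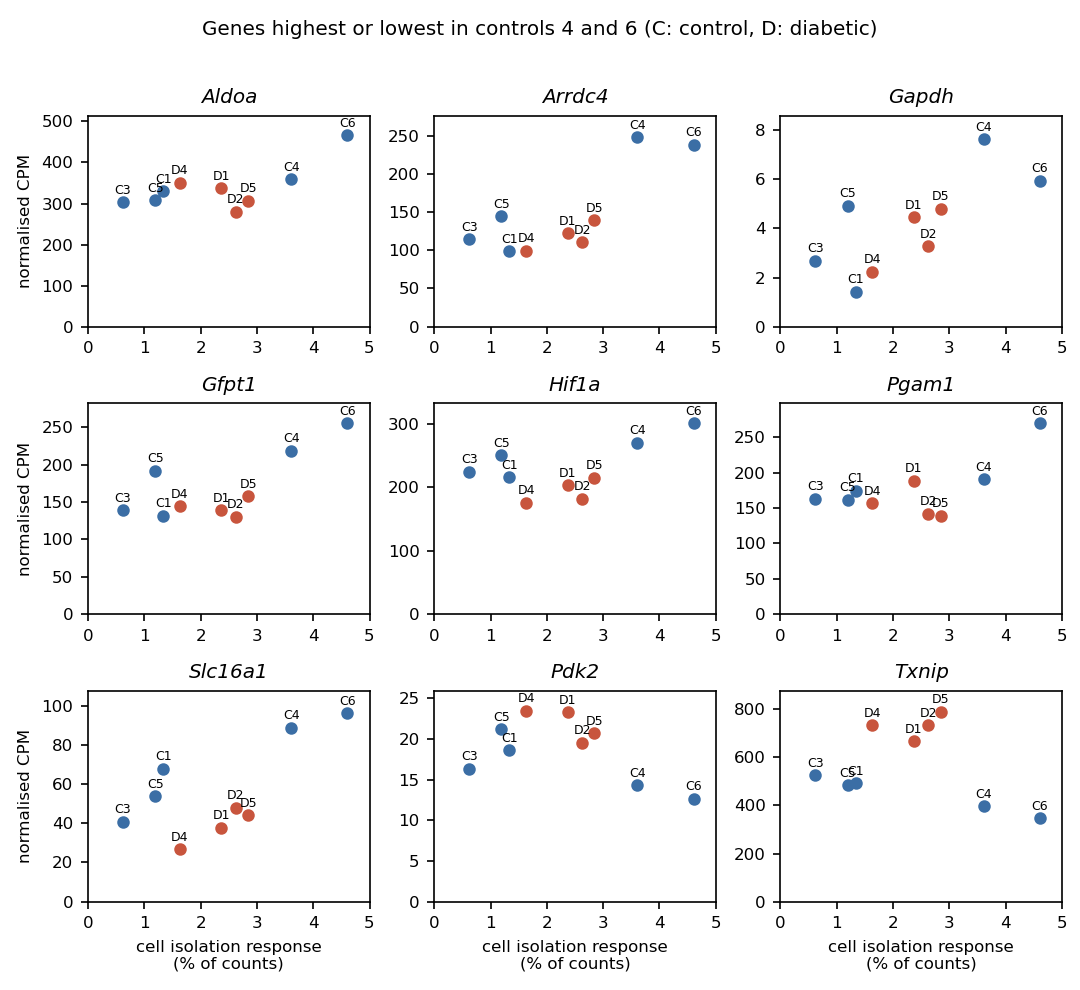
Normalised CPM (y axis) of the 9 members for which controls 4 and 6 are the highest or the lowest pair, against the share of counts in the 29 cell isolation response genes (x axis, percent), for the 5 control and 4 diabetic libraries. The diabetic libraries lie between 1.64% and 2.85% and controls 4 and 6 at 3.61% and 4.61%.

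Levels between genes were compared per kilobase of the longest reference transcript, which the authors' assemblies give for 13 members. In controls Gpi was at 170.4 ± 19.7 CPM per kilobase, Txnip at 163 ± 27.2 and Taldo1 at 139.9 ± 14 (SD, n = 5). Gpi and Txnip did not differ beyond their spread there. In diabetic libraries Txnip was at 265 ± 18.2 CPM per kilobase (SD, n = 4) and Gpi at 149.6 ± 10.6. Slc16a3 (28 ± 7.99), Slc16a1 (27.9 ± 9.34) and Slc2a1 (27.8 ± 9.73) lay together in controls, within each other's spread, and Pfkfb4 was the lowest at 0.524 ± 0.129. For comparison, the fructose carrier Slc2a5 (GLUT5), a known microglial gene that is no member, was at 469.6 ± 64 in controls and 488 ± 56.3 in diabetic libraries. Its log2 ratio of CPM was 0.056 and its groups overlapped.

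The neighbouring genes of these pathways were taken from lists of 118 genes, of which 111 had a row and 91 were tested. At an adjusted p below 0.05 the quasi-likelihood test called 0 of 91 (background 0.0681%) and DESeq2 called 10 (background 5.23%). An unadjusted p below 0.05 was reached by 27 (29.7%, against 18.9% of all genes), 9 higher (9.89%, against 8.94%) and 18 lower (19.8%, against 10.0%), and the median log2 fold change was −0.12, against 0.0017 over all genes. All diabetic libraries lay above all controls for 3 (3.3%, against 4.27%), Emb, Ldhd and Arrdc2, and below them for 11 (12.1%, against 4.16%). These patterns depend on the TMM factors, and shares of total counts were not compared for these genes. With no normalisation factors, the log2 ratios of the lower genes named below ran from −0.49 for P4ha1 to −0.15 for Slc16a7.

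The hexosamine list had 5 negative log2 fold changes among 5 tested genes, and 3 had all diabetic libraries below all controls. Uap1, which makes UDP-N-acetylglucosamine, was at 29.8, 27.8, 32, 24.3 and 34.2 normalised CPM in the controls and 21.4, 18, 20.4 and 22.7 in the diabetic libraries (log2 ratio −0.52, adjusted p = 0.10). Without controls 4 and 6 its log2 ratio was −0.41. Gnpnat1 (log2 ratio −0.29) and Mgea5, the O-GlcNAc hydrolase (−0.28), also had groups that did not overlap.

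The pentose phosphate neighbours include Prps1 and Prps2, which make phosphoribosyl pyrophosphate for nucleotides. Prps2 was at 92.7, 96.6, 94.5, 92.7 and 106 normalised CPM in the controls and 76.7, 60.9, 60.4 and 78.4 in the diabetic libraries (log2 ratio −0.48, adjusted p = 0.0895), and Prps1 had a log2 ratio of −0.48 (adjusted p = 0.11). The diabetic libraries of both lay below the controls. Rpe had a log2 ratio of −0.33 and Pgls, 6-phosphogluconolactonase, had a log2 ratio of 0.44.

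Of the 13 tested glycogen genes, 11 had negative log2 fold changes. The branching enzyme Gbe1 (log2 ratio −0.30, adjusted p = 0.124) had diabetic libraries below all controls. Pygm (log2 ratio −0.93), Pgm2 (log2 ratio −0.35) and Phka1 (log2 ratio −0.40) overlapped, and without controls 4 and 6 Pygm was −0.40 and Phka1 −0.26. G6pc, the glucose-6-phosphatase catalytic subunit, had a log2 ratio of −0.29 with groups that did not overlap.

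In the glucose sensing and thioredoxin list, 8 of 13 log2 fold changes were positive. Txn1, thioredoxin, which the protein of Txnip binds, was at 19.8, 18, 25.6, 18.6 and 25.6 normalised CPM in the controls and 33.7, 24.2, 46.2 and 23.4 in the diabetic libraries, with overlapping groups (log2 ratio 0.56, adjusted p = 0.183, and 0.33 without diabetic 4). Its reductase Txnrd1 had a log2 ratio of −0.33. Mlxipl (ChREBP, the relative of MondoA) had a log2 ratio of 0.35, or 0.22 without controls 4 and 6 and 0.23 without diabetic 2, and the arrestins Arrdc1 and Arrdc2 had log2 ratios of 0.41 and 0.47. Prkab1, a subunit of AMP-activated kinase, had a log2 ratio of 0.23, or 0.14 without controls 4 and 6.

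Beside Hif1a, 5 of 6 tested oxygen sensing genes and 12 of 16 hypoxia-inducible factor target genes outside glycolysis had negative log2 fold changes. Vhl, which marks HIF1A for degradation, had a log2 ratio of −0.41 with groups that did not overlap (adjusted p = 0.109), and −0.32 without controls 4 and 6. P4ha1, a collagen prolyl hydroxylase subunit, was at 204, 259, 276, 216 and 342 normalised CPM in the controls and 195, 161, 151 and 167 in the diabetic libraries (log2 ratio −0.62, adjusted p = 0.0927), again without overlap. Controls 4 and 6 were the highest for P4ha1, and its log2 ratio was −0.435 without them. Kdm3a had a log2 ratio of −0.58, or −0.20 without controls 4 and 6. Among transporters, Slc16a7 (MCT2) had a log2 ratio of −0.27 with diabetic libraries below all controls, Emb, a chaperone of MCT proteins, 1.28 with 0.215 to 1.23 CPM in controls and 1.3 to 2.77 in diabetic libraries, and Mpc2, of the mitochondrial pyruvate carrier, 0.41. Ldhd (log2 ratio 0.54) and Tkfc (log2 ratio −0.42) were the other neighbours past an unadjusted p of 0.05 that are named here.

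**Figure D5:**
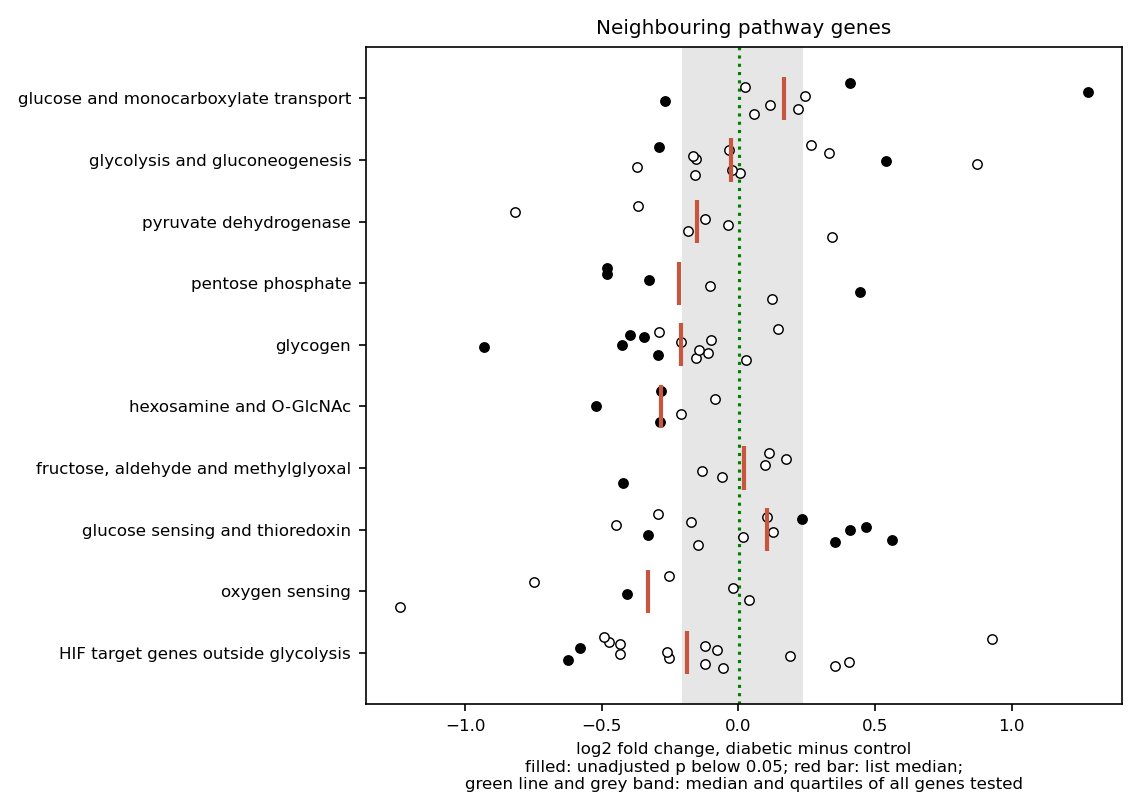
Log2 fold change (x axis, diabetic over control) of the 91 tested neighbouring genes by list (y axis), with filled points for an unadjusted p below 0.05, a red bar at each list's median, and the median and quartiles of all tested genes as a green line and grey band. The hexosamine list lies entirely to the left of 0, and 11 of 13 glycogen genes do.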

How the data were processed

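RNA was sequenced from 9 libraries of sorted retinal microglia. The authors deposited a table of read counts per gene, a table of their own comparison (log2 fold changes, p-values and false discovery rates), and transcript assemblies with TPM. Per the submitters' processing notes, the build was Rnor_6.0 and the tools were bcl2fastq 2.18.0.12, TopHat2 2.0.14, StringTie 1.2.4 and edgeR. The sources used here do not give the counting program, its use of strand or its handling of reads with several matches.

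Libraries held 6228756 to 11332823 counts. Genes were filtered with filterByExpr (minimum count 10, minimum total 15), scaled by TMM and fitted over all 11748 genes with edgeR 4.0.16 (R 4.3.3), a robust quasi-likelihood F test, with Benjamini-Hochberg adjustment at 0.05. Standard errors were derived from each log2 fold change and the normal quantile matching its p, and 95% intervals use them. Normalised CPM were computed from the counts. TPM of Txnip were compared as log2(TPM + 1) by an exact permutation test. The fit was tested on simulated counts.

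The members and lists were chosen with earlier results of these data known. Values by library are given for members with an unadjusted p below 0.05 or with groups that do not overlap, and for a fixed set of key genes. Neighbouring genes are named by the same thresholds, up to 5 per direction and list, with Slc2a5 and Txn1 always; some genes that this rule names are not reported here. Libraries were compared pairwise and none was a duplicate (chi-square per degree of freedom at least 11.7 over 36 pairs). Alternatives were other scalings, no filter, DESeq2 1.42.0, an isolation response covariate, a replicate block, and libraries left out. The comparison of TPM was added after seeing the data. RefSeq tables gave promoter windows.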

Additional observations from a re-analysis of the deposited data

Results flagged for a closer look

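Single libraries lay far from the rest of their group, by Dixon's test at 95%, for 5 of 130 groups of values tested, where chance flags about 1 in 20. Control 6 was high for Gpi at 413 normalised CPM against 317 to 333 in the other controls. It was also high for Pgam1 at 269.7 against 162 to 191, and for Prps2 at 106 against 92.7 to 96.6. Control 1 was high for Pfkm, the muscle-type phosphofructokinase, at 13.7 against 6.43 to 8.39. Control 5 was low for Tkfc, which phosphorylates dihydroxyacetone and glyceraldehyde, at 8.36 against 11.5 to 12.8, within the diabetic range of 8.01 to 8.71. Control 6 is also the library with the highest share of isolation response genes, 4.61% of counts, and the lowest TMM factor, 0.839. The part of either in these values was not tested.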

How the results depend on the processing

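The count of members past the threshold was 0, and 0 to 1 over the libraries left out in turn, the 1 being Txnip without control 1. It was 1 with upper-quartile factors and 1 without the filter on low counts (Txnip both times), 3 by DESeq2 (Akr1b1, Slc16a1 and Txnip) and 6 with the isolation covariate (these 3 with Arrdc4, Gfpt1 and Hif1a). For the neighbouring genes, 0 became 10 by DESeq2, 14 with the covariate and 0 to 1 over the libraries left out (P4ha1 without control 1). Over all genes the covariate called 1170 and DESeq2 599, against 8 in the main fit. The fit without control 1 called 75, that without the filter 42 and that with upper-quartile factors 31. The members' median log2 fold change of −0.18 was −0.064 without normalisation factors and −0.057 without controls 4 and 6.

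Of 629 alternative values for single members, 590 kept direction and call, 12 passed the threshold and 27 changed sign, none of these past it. The direction never turned for 27 of 37 members. Without normalisation factors the log2 fold change was 0.10 for Taldo1 and 0.035 for Mlxip. Taldo1 was 0.065 with upper-quartile factors and 0.00018 with the covariate, and Pdhb was −0.00058 by DESeq2. Without controls 4 and 6, Aldoa was 0.015, Gapdh 0.30, Hk3 0.070, Tkt −0.015 and Slc2a5 −0.086. Leaving out 1 library gave Pfkl −0.042 to 0.085, Pdhb −0.059 to 0.075, Taldo1 −0.069 to 0.049, Gapdh −0.50 to 0.0054, Tkt −0.015 to 0.061, Hk3 −0.44 to 0.13, Aldoc −0.11 to 0.41 and Slc2a5 −0.018 to 0.10. The causes were not tested.

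Replicate numbers were not used to pair the samples in the main fit. Same-numbered libraries had correlations of deviations of 0.20 (number 1), −0.11 (number 4) and 0.016 (number 5). Control 4 correlated best with diabetic 5 (0.30). These values cannot show whether the numbers mark pairs. With the replicate number as a block over 6 libraries, the median of the members was −0.079 and 0 of 11713 genes passed the threshold, with 1150 at an unadjusted p below 0.05. In that fit Taldo1 was 0.10, Hk3 0.15, Pfkm −0.044 and Slc2a5 −0.016. For Txnip the adjusted p ran from 0.000217 by DESeq2 to 0.348 with the block.

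With 5 and 4 libraries, fold changes of low genes such as Pfkfb4, Gapdh, Hk3 and Khk rest on few counts, and a missed threshold does not show equality.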
